A study of Sus scrofa with 6 samples.

Results

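The enzymes that write, copy and remove methyl groups on cytosine in DNA were examined in pig oocytes taken singly at the germinal vesicle stage, arrested before meiotic resumption. The set was 9 genes, chosen by name: DNMT1, UHRF1, DNMT3A, DNMT3B, DNMT3L, TET1, TET2, TET3 and TDG. Of the 9, 6 had rows in the gene tables, among 19300 genes in all, and 4 of these averaged at least 1 FPKM, the fragments of a transcript scaled by its length and by the size of the library. The classes compared were 3 BCB-positive and 3 BCB-negative oocytes, 1 oocyte to a library. BCB stands for brilliant cresyl blue, a dye whose colour is lost where the enzyme glucose-6-phosphate dehydrogenase is active. Oocytes that keep the blue colour (BCB-positive) are generally taken as fully grown and those that lose it (BCB-negative) as still growing. The labels describe the same source for both, complexes with 3 or more layers of cumulus cells from follicles of 3 to 6 mm, and in each case the zona pellucida and the cumulus cells were removed. The labels give no breed, age or animal for any oocyte, so each class stands as 1 sample of 3 cells. Values and spreads are therefore described and no test between classes was made.

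In mammals DNMT1 copies methylation onto the new strand after DNA replication, and UHRF1 brings it to sites where the old strand alone is methylated. DNMT3A and DNMT3B add methylation to unmethylated DNA, and DNMT3L, which has no catalytic activity, assists them; in the mouse, DNMT3A and DNMT3L set the methylation of growing oocytes. TET1, TET2 and TET3 oxidise methylcytosine, and TDG cuts out the most oxidised forms so that base excision repair can put back cytosine. In the mouse, TET3 stored in the egg oxidises methylcytosine in the zygote, and a large store of DNMT1 is kept mostly in the cytoplasm of the oocyte.

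Expected counts (estimates that divide reads among transcripts) summed to between about 7122750 and 9238990 per oocyte. BCB-positive oocyte 3 stood apart: its mean Pearson correlation with the other oocytes, across 11495 genes of at least 1 FPKM on average, was 0.874, against 0.905 to 0.915 for the rest. Of 12 oocyte markers, ZP2, ZP3, ZP4, GDF9, BMP15, MOS, NPM2 and OOEP were at 58.6 FPKM or more in every oocyte. The others were lower. FIGLA fell to 53.83 FPKM and DDX4 to 10.25 FPKM, DAZL was at 1.29 to 4.79 FPKM and NOBOX did not exceed 0.83 FPKM. Of 14 markers of cumulus and granulosa cells, 4 had no row, FSHR and FOXL2 among them. CYP19A1 did not exceed 0.18 FPKM. STAR, a steroid synthesis gene of the same list, was at 1.56, 1.79 and 0.40 FPKM across BCB-positive oocytes, against 0.05, 0.37 and 0.16 FPKM in BCB-negative oocytes, from 81 and 11 counts over a class, without overlap. Its mean of 0.72 FPKM left it out of the 11495 genes, 7.44% of which had the same order. The other markers of that list with a row overlapped between classes. The 14 markers summed to 27.3 to 36.0 FPKM in BCB-positive and 20.6 to 31.1 FPKM in BCB-negative oocytes, mostly from INHBA. Of 10 markers of other cells 4 had no row, and the 10 summed to 22.4 to 44.4 FPKM in BCB-positive and 16.9 to 22.1 FPKM in BCB-negative oocytes, mostly from the epithelial gene EPCAM. EPCAM was highest in BCB-positive oocyte 3, at 41.2 FPKM against at most 22.4 FPKM in the rest. Among the low markers of both lists, PTPRC (0.56 FPKM) and HSD3B1 (0.46 FPKM) were above 0 only in BCB-positive oocyte 3. COL3A1 (0.47 FPKM) was above 0 only in BCB-negative oocyte 1. The part of other cells in the results below was not tested.

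DNMT1 (gene 606746), the maintenance methyltransferase, held more reads than any other gene in 6 of 6 oocytes. It took 3.73%, 3.23% and 2.32% of the expected counts in BCB-positive oocytes 1, 2 and 3, and 3.40%, 3.67% and 4.05% in BCB-negative oocytes 1, 2 and 3. With 214294 counts or more behind each value, 95% Wilson intervals ran from 2.31% to 2.33% for the lowest share and from 4.03% to 4.06% for the highest. The protocols name no molecular identifier, so such intervals cover counting error only. The second most counted gene was the ferritin light chain gene FTL in 5 oocytes and the mitochondrial import gene DNAJC15 in 1.

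**Figure D1:**
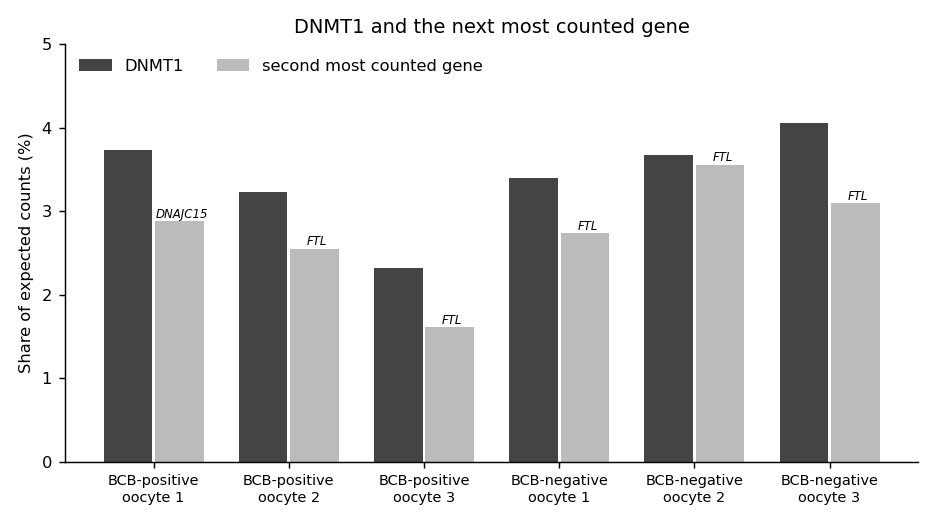
Bars give the share of each oocyte's expected counts, in percent, held by DNMT1 (dark) and by the next most counted gene (light, named above the bar), with 1 pair of bars per oocyte and BCB-positive oocytes on the left. DNMT1 is the taller bar in all 6 oocytes, from 2.32% in BCB-positive oocyte 3 to 4.05% in BCB-negative oocyte 3.

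Long transcripts collect more reads, and on the scale per length DNMT1 ranked between 7 and 10 among all genes of an oocyte. Its level was 7129, 6204 and 4432 FPKM across BCB-positive oocytes, against 6516, 7030 and 7753 FPKM in BCB-negative oocytes. The classes overlapped, and the lowest value was that of BCB-positive oocyte 3. FTL and DNAJC15 were also lowest in that oocyte, at 18057 and 13755 FPKM, against at least 27255 and 29785 FPKM elsewhere. ZP2 was highest there, at 2255 FPKM. In 6 of 6 oocytes DNMT1 lay above ZP4, a zona pellucida glycoprotein gene (4118 to 6518 FPKM), above the kinase gene MOS (1780 to 3733 FPKM) and above the growth factor gene GDF9 (122 to 225 FPKM). It lay below the zona gene ZP3 in all 6.

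UHRF1 (gene 100511003), the partner that guides DNMT1 to hemimethylated DNA, was low, with 6.77% to 27.0% of an oocyte's listed genes below it. UHRF1 stood at 0.36, 0.19 and 0.62 FPKM across BCB-positive oocytes, against 0.48, 0.37 and 1.27 FPKM in BCB-negative oocytes, from 6 to 35 counts. The classes overlapped, with BCB-negative oocyte 3 highest. Within an oocyte, the level of DNMT1 per length was 6104 to 32654 times that of UHRF1, with a median of 16288 over the 6 oocytes. Both proteins act together at replicating DNA in dividing cells.

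The de novo methyltransferases stood far below DNMT1 per length, and close to each other. DNMT3A (gene 100037301) was at 55.4, 74.3 and 29.1 FPKM across BCB-positive oocytes, against 74.1, 64.8 and 47.8 FPKM in BCB-negative oocytes. Its values spread 2.56-fold over the 6 oocytes and the classes overlapped. DNMT3B (gene 100302109) was at 50.3, 57.3 and 39.9 FPKM across BCB-positive oocytes, against 33.9, 65.7 and 37.5 FPKM in BCB-negative oocytes. These values overlapped as well, and BCB-negative oocyte 2 was both the highest for DNMT3B and the sole BCB-negative oocyte with more DNMT3B than DNMT3A. The ratio of DNMT3A to DNMT3B was 1.10, 1.30 and 0.73 in BCB-positive oocytes and 2.19, 0.99 and 1.28 in BCB-negative oocytes. DNMT3A was the higher of the pair in 4 of 6 oocytes, so neither gene ranked consistently above the other. DNMT1 accounted for 97.9% to 98.9% of the summed FPKM of the 3 methyltransferases.

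TET3 (gene 100520484) was above TET2, the other methylcytosine oxidase with a row, and had the narrowest range of the 6 listed members. TET3 stood at 1.90, 1.46 and 1.74 FPKM across BCB-positive oocytes, against 1.42, 1.37 and 1.45 FPKM in BCB-negative oocytes, from 118 to 184 counts. The BCB-positive oocytes lay above the BCB-negative ones, but by only 0.01 FPKM between the nearest values, 1.46 and 1.45. The order was lost with size factors, with sums of FPKM set equal and with CPM (expected counts scaled to a common library total, not per length), where the classes overlapped. Among the 11495 genes, 7.44% had all 3 BCB-positive oocytes above all 3 BCB-negative oocytes and 4.03% had them all below, so nothing is read from 1 member among the 4 compared.

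TET2 (gene 100521465), a second oxidase, was near the floor of detection. TET2 was at 0.26, 0.08 and 0.37 FPKM across BCB-positive oocytes, against 0.52, 0.91 and 0.32 FPKM in BCB-negative oocytes. The lowest value was that of BCB-positive oocyte 2, from 5 counts, and the classes overlapped. Summed over a class, TET2 had 1.90 CPM (95% exact Poisson interval 1.40 to 2.52) in BCB-positive oocytes and 4.66 (3.79 to 5.62) in BCB-negative oocytes, intervals that cover counting error and not the spread between oocytes. TET3 exceeded TET2 in 6 of 6 oocytes. TET3 made up 88.0%, 94.8% and 82.5% of the summed FPKM of TET3 and TET2 across BCB-positive oocytes, against 73.2%, 60.1% and 81.9% in BCB-negative oocytes. The nearest values were 82.5% and 81.9%, and by expected counts the classes overlapped, with 87.2% in BCB-positive oocyte 3 and 87.3% in BCB-negative oocyte 3. TET2 varied 11.4-fold over the 6 oocytes and TET3 1.39-fold.

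DNMT3L, TET1 and TDG had no row under their gene IDs and were set to 0 by the rule. The tables list features with counts above 0 for the gene models used in mapping, so a missing row can be a gene with no reads or one with no model. Of 16527 named protein-coding genes in the RefSeq table, 26.5% had no row either, including TRIM28, a corepressor gene expressed in most cells. No level is therefore given for the 3. TET1 enters the balance of enzymes below as 0, and the part of the 3 genes in that balance is not analysed here. GLT8D2, which overlaps TDG in the RefSeq annotation, had a row, at 11.4 to 35.8 FPKM.

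**Figure D2:**
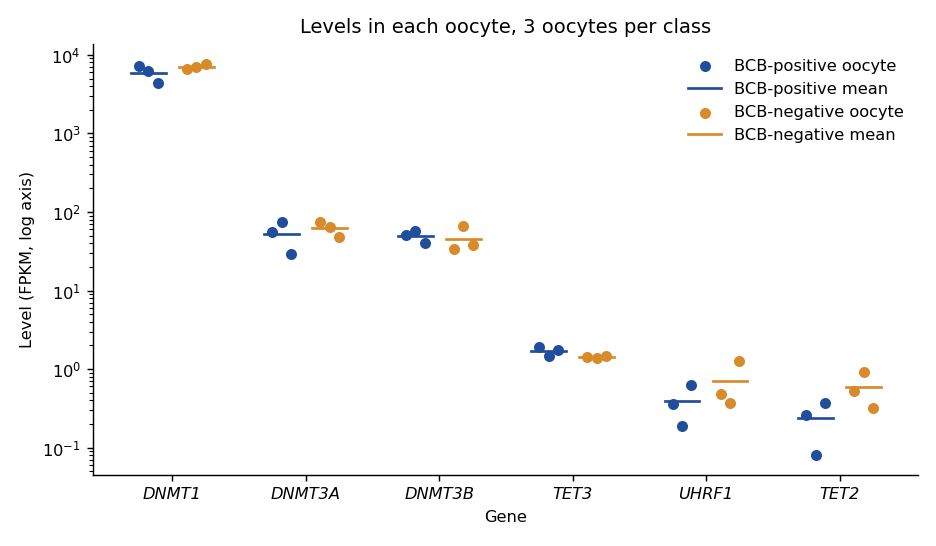
Points are single oocytes and short lines are class means, with BCB-positive oocytes (blue) left of BCB-negative oocytes (orange) for each gene; the vertical axis is the level in FPKM on a log axis. DNMT1 lies at 4432 FPKM or above, DNMT3A and DNMT3B between 29.1 and 74.3 FPKM, TET3 between 1.37 and 1.90 FPKM, and UHRF1 and TET2 at 1.27 FPKM or below.

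The 6 listed genes thus fell into 4 levels per length. DNMT1 was 83.5 to 162 times DNMT3A, and DNMT3A and DNMT3B shared a level. DNMT3B was in turn 22.9 to 48.0 times TET3. TET3 was above TET2 in all oocytes and above UHRF1 in all oocytes, by the smallest margin in BCB-negative oocyte 3 (1.45 against 1.27 FPKM). UHRF1 and TET2 could not be ordered, UHRF1 being the higher in 4 of 6 oocytes. These levels take coverage to be even along each transcript. The cDNA was primed at the poly(A) tail and TET3 transcripts, of 11277 to 12242 bases, were the longest of the set; whether coverage along them was even was not tested.

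Between the classes, 0 of the 4 compared members were separated without overlap by 1.5-fold or more in either direction, against 5.75% of all genes higher and 2.66% lower in BCB-positive oocytes. These shares stand for 661 genes higher and 306 lower, a split that was 522 and 425 with size factors and 818 and 225 with a common sum. The difference in mean log2(FPKM + 1), BCB-positive minus BCB-negative, was -0.29 for DNMT1 with a pooled SD between oocytes of 0.26. DNMT1 averaged 5922 ± 1371 FPKM in BCB-positive and 7100 ± 621 FPKM in BCB-negative oocytes (SD, n = 3 each). BCB-positive oocytes exceeded BCB-negative ones in 2 of 9 pairs. Without BCB-positive oocyte 3 the DNMT1 difference was -0.09, so most of it rested on that library.

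The DNMT3A difference was -0.31 (SD 0.53), and its sign turned, at 0.07, with BCB-positive oocyte 3 left out. DNMT3B differed by 0.15 (SD 0.40). Its difference was -0.03 when BCB-negative oocyte 1 was left out and 0.44 when BCB-negative oocyte 2 was. TET3 differed by 0.16 (SD 0.09), beside a median of 0.11 over all genes. With a pseudocount of 0.1 FPKM TET3 differed by 0.24, beside 0.13 for all genes. With a pseudocount of 5 FPKM it differed by 0.06, beside 0.07. The differences of UHRF1 and TET2 were -0.27 (SD 0.32) and -0.35 (SD 0.23), a scale that understates changes at such low levels. Without BCB-negative oocyte 3 the UHRF1 difference was -0.05. The TET2 difference was -0.20 when BCB-negative oocyte 2 was left out. The median over the 4 compared members was -0.07, beside the 0.11 of all genes, and it was 0.11 without BCB-positive oocyte 3, beside 0.05 for all genes. The difference exceeded the pooled SD for DNMT1, TET2 and TET3 and was within it for DNMT3A, DNMT3B and UHRF1.

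**Figure D3:**
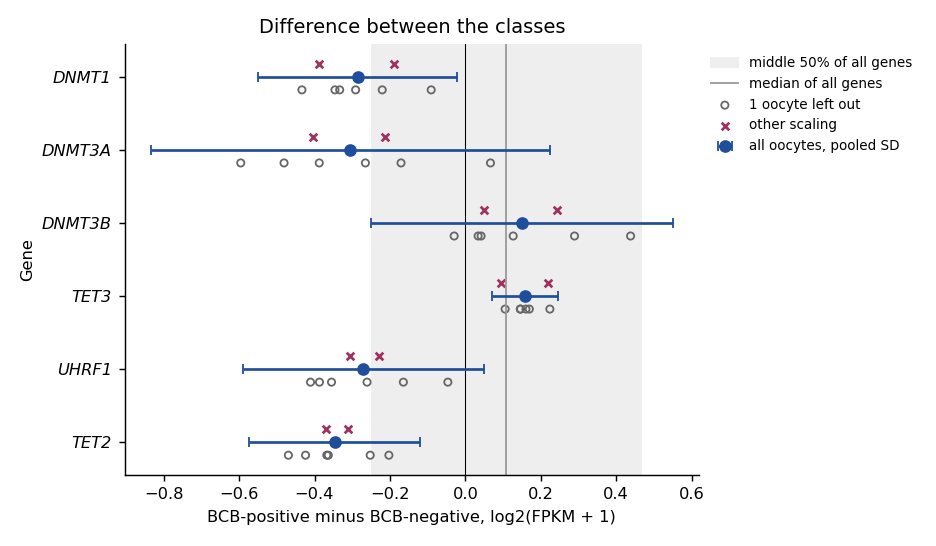
Filled points give the BCB-positive minus BCB-negative difference in mean log2(FPKM + 1) for each gene with the pooled SD between oocytes as bars; open circles leave out 1 oocyte each and crosses use either of 2 other scalings. The grey band spans the middle 50% of all 11495 genes and the grey line their median of 0.11. DNMT3A and DNMT3B have open circles on both sides of 0.

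The ratio of summed methyltransferases to summed TET enzymes within an oocyte does not depend on how libraries are scaled. It was 3349, 4114 and 2133 in BCB-positive oocytes and 3414, 3141 and 4428 in BCB-negative oocytes, dominated by DNMT1 above and TET3 below. On the log2 scale the classes differed by -0.23 with a pooled SD of 0.39, and by 0.04 without BCB-positive oocyte 3. With TET1, which had no row, taken as 0, the balance of the messages did not separate the classes.

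More than 1 transcript had reads for DNMT1, TET3, DNMT3A and UHRF1. In UHRF1 the transcript XM_003123079.3 held 1.75 counts over all BCB-positive and 0.49 over all BCB-negative oocytes, too few to describe a division. For DNMT1, 3 of the 6 transcripts named in the tables had reads. The transcript XM_005654832.1 held 34.5%, 35.9% and 34.9% of the DNMT1 FPKM across BCB-positive oocytes, against 49.4%, 51.7% and 36.7% in BCB-negative oocytes. The BCB-positive shares lay within 2 percentage points of each other and below all BCB-negative shares, BCB-negative oocyte 3 coming close. The mean difference was -10.8 percentage points (pooled SD 5.74). It was -15.5 when BCB-negative oocyte 3 was left out and -7.96 when oocyte 2 of that class was. The share of XM_005654831.1 was 53.0%, 51.8% and 55.9% in BCB-positive and 40.3%, 38.2% and 52.5% in BCB-negative oocytes, with overlap. NM_001032355.1 held the remaining 9.26% to 12.5%. The first pair are 5290 and 5293 bases long, so they differ in length by 3 bases, and how well reads told them apart was not tested. Over 7706 transcripts of 2803 genes with 2 or more listed transcripts, each gene reaching 1 FPKM in all oocytes, 3.22% had shares without overlap and lower in BCB-positive oocytes and 3.37% had them higher.

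TET3 reads were divided among 4 transcripts. XM_005662450.1 held 74.7%, 47.9% and 26.4% of the TET3 FPKM across BCB-positive oocytes and had no row in any BCB-negative oocyte. XM_005662451.1 held 25.3%, 0% and 0% in BCB-positive and 57.7%, 0% and 100% in BCB-negative oocytes. The first was thus without overlap and higher, like the 3.37% above, by 49.7 percentage points (pooled SD 17.1). The difference was 37.2 to 61.3 with a BCB-positive oocyte left out. Leaving out a BCB-negative oocyte could not change it, as the share was 0 throughout that class. These transcripts are 11976 and 12242 bases long, and how well reads told them apart was not tested. The other 3 TET3 transcripts overlapped between classes, and among BCB-negative oocytes alone their shares ran from 0 to 100%. An oocyte had at most 184 counts for the whole gene.

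DNMT3A had 2 transcripts with reads. The longer one, XM_005662686.1 (3088 bases), held 86.7%, 79.5% and 75.0% in BCB-positive oocytes and 91.9%, 78.2% and 78.5% in BCB-negative oocytes. The shorter, NM_001097437.1 (2504 bases), held the rest, and the classes overlapped. For DNMT3B, 1 of 2 named transcripts had reads in every oocyte, XM_005672840.1. How the transcripts differ in sequence was not examined, and no sequence is printed.

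**Figure D4:**
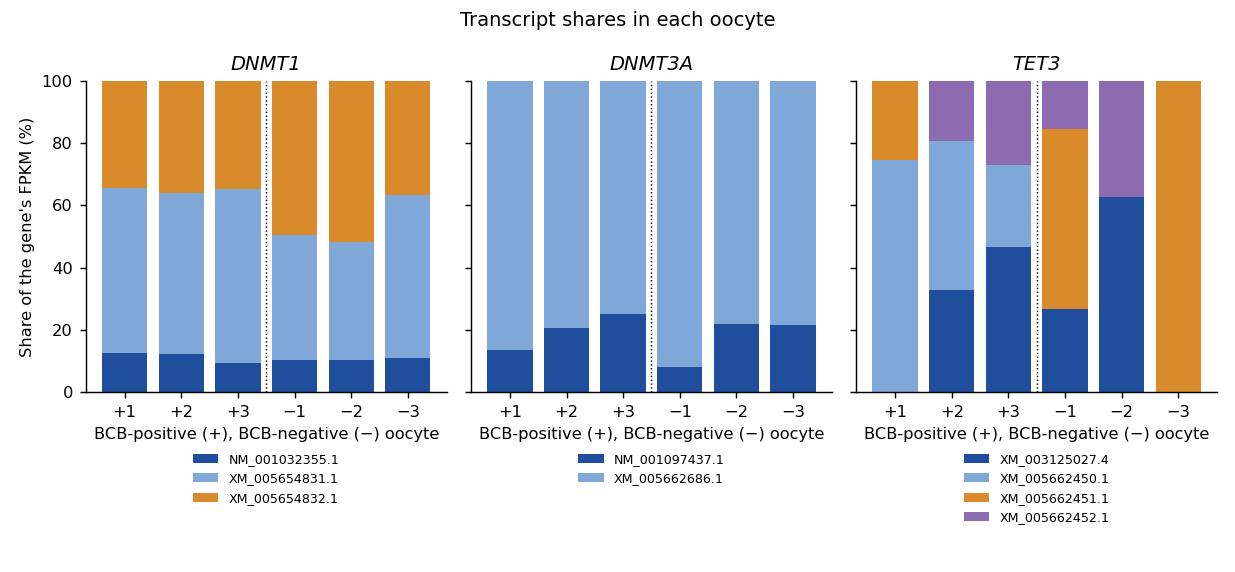
Stacked bars give the share, in percent, of a gene's summed FPKM held by each listed transcript of DNMT1, DNMT3A and TET3 in each oocyte, with BCB-positive oocytes (+) left of the dotted line and BCB-negative oocytes (-) right of it. The DNMT1 transcript XM_005654832.1 (orange) holds 34.5% to 35.9% on the left and 36.7% to 51.7% on the right; TET3 shares vary from 0 to 100% within a class.

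Around the enzymes, 4 further lists were counted by the same rule, no overlap and at least 1.5-fold. Over all 11495 genes, 5.75% met the rule higher and 2.66% lower in BCB-positive oocytes. The lists were chosen with earlier results of these data known, so their counts are described and not tested. Of 16 genes that target DNMTs or protect methylation, 12 were compared, with 0 higher and 0 lower and a median difference of 0.19. PCNA, the replication clamp that binds DNMT1, was the most abundant at 1969 ± 135 FPKM in BCB-positive and 1726 ± 124 FPKM in BCB-negative oocytes (SD, n = 3 each), a difference of 0.19 with overlap. DPPA3, which in the mouse shields the maternal genome from oxidation and holds UHRF1 off chromatin, was at 177, 364 and 793 FPKM in BCB-positive and 168, 268 and 263 FPKM in BCB-negative oocytes. DPPA3 overlapped between classes and differed by 0.70, but by 0.15 without BCB-positive oocyte 3. Without BCB-positive oocyte 1 instead, 4 genes of this list were higher, while the count over all 11495 genes was 1574 in place of 661. Of 7 readers of methylated DNA, 4 were compared, with 0 higher and 0 lower. The most abundant was MBD3, at 14.4 ± 6.0 FPKM in BCB-positive and 13.2 ± 3.9 FPKM in BCB-negative oocytes (SD, n = 3 each). ZBTB33 (Kaiso) was at 3.23, 1.94 and 9.43 FPKM in BCB-positive and 1.44, 5.55 and 0.17 FPKM in BCB-negative oocytes, with overlap. Its difference of 0.93 (SD 1.10) was 0.41 without BCB-positive oocyte 3. Leaving out a BCB-negative oocyte instead gave 1.58 for oocyte 2 and 0.34 for oocyte 3.

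Of 17 partners of TET and TDG and genes of base excision repair, 12 were compared, with 3 higher and 0 lower and a median difference of 0.42. Among all genes 5.75% were higher and 2.66% lower by this rule, and this list was not chosen blind to the data. The 3 were UNG, SMUG1 and OGT. UNG, the glycosylase that removes uracil from DNA, was at 9.67, 6.54 and 9.37 FPKM across BCB-positive oocytes, against 3.48, 4.35 and 3.57 FPKM in BCB-negative oocytes. SMUG1, a glycosylase of uracil and hydroxymethyluracil, was at 7.29, 7.08 and 6.68 FPKM across BCB-positive oocytes, against 3.62, 2.96 and 3.62 FPKM in BCB-negative oocytes. Both had every BCB-positive oocyte well above every BCB-negative one, with differences of 0.98 (SD 0.22) and 0.87 (SD 0.10). Leaving out any 1 oocyte gave 0.89 to 1.14 for UNG and 0.79 to 0.91 for SMUG1. Both kept their order with size factors, a common sum and CPM. With a pseudocount of 5 FPKM in place of 1 the differences were 0.61 for UNG and 0.52 for SMUG1, and SMUG1 was then below 1.5-fold. The cumulus and granulosa marker STAR, given above, was also higher in BCB-positive oocytes, and its part in these differences was not tested. The other markers of its list with a row overlapped between classes. Over a class, UNG had 442 counts in BCB-positive and 174 in BCB-negative oocytes, and SMUG1 had 508 and 218.

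OGT, the glycosyltransferase that binds TET proteins, was at 2.36, 2.82 and 8.03 FPKM across BCB-positive oocytes, against 1.93, 0.25 and 0 FPKM in BCB-negative oocytes, the last having no row. The nearest values were 2.36 and 1.93 FPKM. OGT had a difference of 1.66 (SD 0.80) and of 1.22 without BCB-positive oocyte 3. It was 3.23 with a pseudocount of 0.1 FPKM, 2.83 as CPM and 0.68 with a pseudocount of 5 FPKM, so its size depends on the scale. The most abundant genes of this list were the ligase LIG3, at 327 ± 101 FPKM in BCB-positive and 446 ± 92 FPKM in BCB-negative oocytes, and the glycosylase NEIL3, at 108 ± 30 FPKM in BCB-positive and 82.7 ± 8.5 FPKM in BCB-negative oocytes (SD, n = 3 each). LIG3 differed by -0.47 (SD 0.37) and NEIL3 by 0.35 (SD 0.31), both with overlap, and NEIL3 by 0.16 without BCB-positive oocyte 3.

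Of 16 genes that supply the methyl donor or ketoglutarate, the cofactor of TET enzymes, 11 were compared, with 0 higher, 1 lower and a median difference of -0.01. The share of all genes that were lower by this rule was 2.66%. MTRR, which restores methionine synthase, was at 2.63, 2.62 and 2.16 FPKM across BCB-positive oocytes, against 2.67, 18.8 and 3.62 FPKM in BCB-negative oocytes. Its difference of -1.01 (SD 0.94) was set by BCB-negative oocyte 2 and was -0.25 without it. The nearest MTRR values were 2.63 and 2.67 FPKM. The order held with size factors and as CPM, but the classes overlapped with a common sum. MAT2B, a regulatory subunit of the enzyme that makes S-adenosylmethionine, was the most abundant gene of the list and overlapped between classes, with a difference of 0.14 (SD 0.64). Its sign turned, to -0.30, when BCB-positive oocyte 3 was left out.

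**Figure D5:**
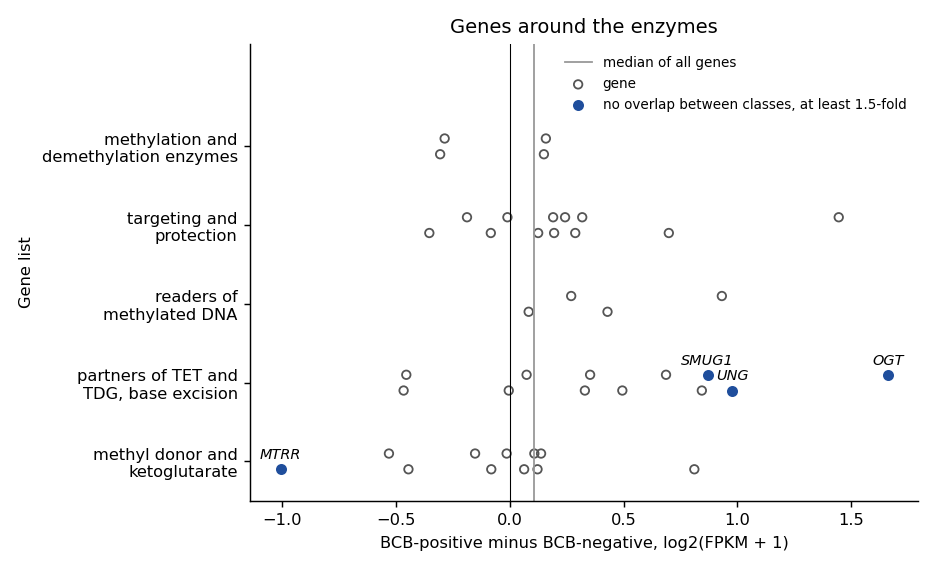
Each circle is 1 gene with a mean of at least 1 FPKM, placed by its BCB-positive minus BCB-negative difference in mean log2(FPKM + 1) and grouped by list; filled circles are genes without overlap between classes and at least 1.5-fold apart. The 3 filled circles on the right are SMUG1, UNG and OGT, the 1 on the left is MTRR, and the 4 compared methylation and demethylation enzymes lie between -0.31 and 0.16.

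The genes whose values followed a member most closely over the 6 oocytes were found by Pearson correlation of log2(FPKM + 1) among 5603 named genes of at least 5 FPKM on average. For DNMT1 they were WDR47 (r = 0.998) and PLK3 (r = 0.996). For DNMT3A they were PFDN6 (r = 0.981) and OOEP (r = 0.980), for DNMT3B SERTAD3 (r = 0.984) and MARCKSL1 (r = 0.976), and for TET3 PIK3C2A (r = 0.963) and MRPS14 (r = 0.959). Of the 5603 genes, 227 exceeded 0.9 with DNMT1, 90 with DNMT3A and 16 each with DNMT3B and TET3. The genes named were picked as the highest of 5603 values, each over only 6 oocytes, so no link is read from them. BCB-positive oocyte 3 was lowest for DNMT1, WDR47 and PLK3 alike, at 4432, 38.1 and 42.0 FPKM. The part of this library and of depth in the correlations was not tested.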

How the data were processed

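Each library was 1 oocyte, and its cDNA, primed by a poly(dT) oligonucleotide and multiplied by PCR, was sequenced, per the labels' protocols. RSEM, BWA and Cufflinks, with the pig build Sscrofa10.2, are named in the submitters' processing notes, without roles or versions. The deposited gene and isoform tables give expected counts, which need not be whole, and FPKM values with 2 decimals, already scaled by the authors for transcript length and library. A gene with no row in an oocyte was set to 0. Symbols came from a RefSeq table of Sscrofa11.1, used for names and overlaps: 13936 of 19300 gene IDs matched by ID and 3 by accession. The unmatched 5361 held 8.63% to 10.2% of an oocyte's counts. The IDs of the members had 1 symbol each, and no other gene had values identical to theirs.

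Differences are BCB-positive minus BCB-negative means of log2(FPKM + 1), with the pooled SD between oocytes, over genes of at least 1 FPKM on average. Python 3.11.15, pandas 2.3.3 and scipy 1.17.1 were used. The rule of no overlap was run on simulated counts with planted changes larger than any difference of the 4 compared members. It therefore says nothing about how the rule treats differences as small as theirs. Genes named were all members, then from each further list up to 4 that met the rule and the 2 most abundant, then the 2 genes most correlated with each compared member; genes named beyond it (markers, genes without a row, overlapping genes, FTL, DNAJC15, MTHFD1 and NSD1) were chosen after their values were seen. The values of 1 gene that the rule names are not reported here. Members and lists were chosen with earlier results of these data known. Alternatives were other pseudocounts (0.1 and 5 FPKM), scalings by median-of-ratios size factors of FPKM or to a common sum, CPM from expected counts, other filters, ratios of class means and leaving out each oocyte. Those for the further lists, for isoform shares without an oocyte and for the TET3 share by counts were added after seeing the data.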

Additional observations from a re-analysis of the deposited data

How the results depend on the processing

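Under the alternatives run, 0 of the compared members met the rule of no overlap and 1.5-fold in either direction. The median member difference was -0.07 and ranged from -0.15 to 0.11 when an oocyte was left out; it was -0.17 with size factors, 0.01 with a common sum, and -0.29 over the 3 members of at least 5 FPKM. Size factors put the median of all genes at 0.02 and a common sum at 0.19, beside 0.11 as deposited, so DNMT1 and DNMT3A stayed below it under both. The log2 ratio of class means gave -1.30 for TET2 and -0.86 for UHRF1, against -0.09 and -0.08 with a pseudocount of 5 FPKM. DNMT1, TET2, TET3 and UHRF1 kept their direction in 12 of 12 alternatives, and DNMT3A and DNMT3B in 11 of 12 each. The balance of methyltransferases to TET enzymes was -0.30 from expected counts.

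With an oocyte left out, genes meeting the rule numbered 0 to 4 higher among targeting genes, 0 to 1 higher among readers and among methyl donor genes, 0 to 3 lower among methyl donor genes and 0 to 1 lower among partners of TET and TDG. Lower methyl donor genes numbered 0 with a common sum and 2 with size factors. Higher partners of TET and TDG numbered 3 to 4 with an oocyte left out. They numbered 2 with a pseudocount of 5 FPKM, and 2 among genes of at least 5 FPKM on average. With an oocyte left out, genes meeting the rule among all genes numbered 826 to 1574 higher and 506 to 795 lower, beside 661 and 306. No paired analysis was possible because the replicate numbers tie no BCB-positive oocyte to a BCB-negative one. Depth limits UHRF1 and TET2, with 5 to 55 counts an oocyte.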

Other observations

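MTHFD1, a folate enzyme of the methyl donor list, was chosen after its values were seen. It was at 17.9, 19.9 and 15.6 FPKM across BCB-positive oocytes, against 25.5, 28.2 and 24.5 FPKM in BCB-negative oocytes. It had no overlap between classes as deposited, under size factors, with a common sum or as CPM, but its difference of -0.53 (SD 0.14) was below 1.5-fold. Under size factors it was -0.63, past 1.5-fold. Among all 11495 genes as deposited, 4.03% were likewise lower without overlap. NSD1, which places the histone mark that DNMT3A reads, was at 5.82, 7.74 and 5.49 FPKM in BCB-positive and 5.12, 4.49 and 4.94 FPKM in BCB-negative oocytes, a difference of 0.32 (SD 0.17). Also chosen after its values were seen, NSD1 was higher without overlap as deposited, like 7.44% of all genes. It overlapped under size factors, and it overlaps RAB24 in the RefSeq annotation.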
